A study of Mus musculus with 6 samples.

Results

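The 10 genes described here encode inflammasome and necroptosis machinery: the sensors Nlrp3 and Mefv, the adaptor Pycard, the caspases Casp1 and Casp4, the pore former Gsdmd, and Ripk1, Ripk3, Mlkl and Casp8 of the necroptosis arm. They were taken by symbol, and all 10 were found among 26835 gene symbols with values. The RNA came from bone marrow-derived macrophages, primary cells grown from the marrow of wild-type BALB/c mice aged 5 to 8 weeks. The marrow cells of both groups had first grown for 6 days in 10% serum with the macrophage growth factor M-CSF at 25 ng/ml. One group then received 10 µg of vesicles shed by K7M2 cells, an osteosarcoma line of the mouse, for 24 h (K7M2-EV), and its control received phosphate-buffered saline (PBS) for the same time. Each group held 3 biological replicates, which the submitters describe as independent experiments, so 6 libraries were compared. The sources used here do not say which mice or which vesicle preparation went into each replicate.

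Inflammasomes are protein platforms that activate caspase-1. A sensor such as NLRP3 or pyrin (encoded by Mefv) recruits the adaptor ASC (encoded by Pycard), which gathers caspase-1. Caspase-1 matures interleukin-1β and interleukin-18 and cleaves gasdermin D, whose freed fragment forms pores in the plasma membrane. Mouse Casp4 encodes caspase-11, which binds lipopolysaccharide in the cytosol and cleaves gasdermin D directly. In necroptosis, the kinase RIPK3 is engaged by RIPK1 or ZBP1 and phosphorylates MLKL, which then breaks the plasma membrane, while caspase-8 restrains this route by cleaving RIPK1 and RIPK3. In macrophages the transcription of Nlrp3 and Il1b is commonly low at rest and is induced by inflammatory signals, a step called priming. All of these proteins are further controlled after translation, which RNA levels do not measure.

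The promoters of 5 of these genes are printed because they belong to the sensor and caspase genes that rose most (Nlrp3, Mefv and Casp4) and to both receptor-interacting kinase genes (Ripk1 and Ripk3). Each runs 5′ to 3′ on the gene's own strand, from 250 bases before to 50 bases after a RefSeq start on GRCm38.p6. Capitals mark matches, on either strand, to 5 short patterns. These were the NF-κB-like GGGNNNTTC and GGANTTTCC, the interferon response core TTTCNNTTT, the STAT-type core TTCNNNGAA and the TATA box TATAAA.
Nlrp3 (chr11:59541319-59541618, plus strand): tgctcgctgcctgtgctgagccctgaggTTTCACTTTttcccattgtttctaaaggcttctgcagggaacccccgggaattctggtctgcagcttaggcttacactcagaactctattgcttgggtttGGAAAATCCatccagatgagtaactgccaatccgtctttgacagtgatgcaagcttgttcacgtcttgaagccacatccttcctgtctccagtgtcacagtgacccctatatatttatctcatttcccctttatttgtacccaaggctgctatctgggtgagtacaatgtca
Mefv (chr16:3718075-3718374, minus strand): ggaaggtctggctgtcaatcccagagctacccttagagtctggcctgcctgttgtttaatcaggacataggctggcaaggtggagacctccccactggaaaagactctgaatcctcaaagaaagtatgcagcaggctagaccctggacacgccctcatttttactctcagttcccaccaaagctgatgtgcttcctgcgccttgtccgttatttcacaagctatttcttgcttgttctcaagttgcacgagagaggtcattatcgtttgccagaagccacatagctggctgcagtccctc
Casp4 (chr9:5308599-5308898, plus strand): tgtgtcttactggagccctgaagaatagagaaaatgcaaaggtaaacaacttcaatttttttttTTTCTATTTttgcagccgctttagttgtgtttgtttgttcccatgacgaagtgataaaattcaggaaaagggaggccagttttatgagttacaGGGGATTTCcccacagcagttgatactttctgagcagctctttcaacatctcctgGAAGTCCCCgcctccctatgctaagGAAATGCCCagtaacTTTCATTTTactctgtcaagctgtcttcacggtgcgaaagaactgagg
Ripk1 (chr13:34002624-34002923, plus strand): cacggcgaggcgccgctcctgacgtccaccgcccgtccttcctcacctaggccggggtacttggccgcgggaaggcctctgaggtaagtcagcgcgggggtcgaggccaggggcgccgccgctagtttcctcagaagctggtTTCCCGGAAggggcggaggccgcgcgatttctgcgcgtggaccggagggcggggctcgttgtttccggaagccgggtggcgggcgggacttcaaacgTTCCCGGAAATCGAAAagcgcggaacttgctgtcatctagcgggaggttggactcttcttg
Ripk3 (chr14:55788808-55789107, minus strand): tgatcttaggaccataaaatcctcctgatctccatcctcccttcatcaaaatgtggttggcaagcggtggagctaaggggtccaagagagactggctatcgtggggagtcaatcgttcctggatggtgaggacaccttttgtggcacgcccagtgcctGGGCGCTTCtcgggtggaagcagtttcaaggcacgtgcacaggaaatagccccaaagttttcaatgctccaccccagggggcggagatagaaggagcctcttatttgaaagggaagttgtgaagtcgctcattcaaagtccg

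The Nlrp3 window held GGAAAATCC, a match to GGANTTTCC on the opposite strand. That pattern was present in 1.26% of all 32817 mouse promoters of the RefSeq table, and Nlrp3 was the only one of the 9 members with a promoter in the table to hold it. GGGNNNTTC was found in Casp4, which held 3 copies, and in Ripk3, and was present in 14.0% of all promoters. TTTCNNTTT was found in Nlrp3, Casp4 and Ripk1, with 10.5% of all promoters holding it. TTCNNNGAA was found in Ripk1 alone among the members, in 2 copies of which 1 overlapped the match to TTTCNNTTT, and in 8.29% of all promoters. TATAAA was in no window of these members, against 13.6% of all promoters, and the Mefv window held no match to any of the 5 patterns. Nlrp3 and Ripk1 each have a second RefSeq window with no match, and the second Casp4 window overlaps the one printed. These matches describe letters and are not evidence of binding.

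Levels are in FPKM, a fragment count divided by a gene length and the library's total. The values fitted lengths that join all annotated exons of a gene, which can exceed the length of the transcript expressed. Levels of different genes can therefore be compared only roughly, while levels of 1 gene can be compared between groups. Spacing of the low values implied 21329000 to 25605000 fragments per library. At this depth every value of a member rested on at least 35 implied fragments, and counting error was at most 16.9%, reached by Mefv with PBS. All 10 macrophage markers were at 1 FPKM or more, among them Csf1r at 211 to 244 FPKM with K7M2-EV and 157 to 190 FPKM with PBS. Adgre1, which encodes F4/80, was at 1620 to 1970 FPKM with K7M2-EV and 140 to 194 FPKM with PBS, and Lyz2 at 9830 to 11500 FPKM with K7M2-EV and 3280 to 3990 FPKM with PBS. Cd68 went the other way, at 195 to 216 FPKM with K7M2-EV and 370 to 436 FPKM with PBS.

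Some markers of other cells also moved between the groups. Summed neutrophil markers were 75.4 to 89.6 FPKM with K7M2-EV and 12.3 to 17.9 FPKM with PBS. Of the 11 listed, 5 reached 1 FPKM in 3 libraries. Among the rest, Cxcr2 was at 0 in every K7M2-EV library and at 0.089 to 0.155 FPKM with PBS. Ltf, Ngp and Retnlg, below 1 FPKM in every library, had lower means with K7M2-EV, and their groups overlapped. S100a8 was at 37.2 to 40.9 FPKM with K7M2-EV and 2.95 to 3.28 FPKM with PBS, Csf3r at 19.9 to 20.8 FPKM with K7M2-EV and 4.64 to 9.88 FPKM with PBS, Mmp8 at 14.9 to 24.6 FPKM with K7M2-EV and 1.57 to 2.6 FPKM with PBS, and Camp at 1.26 to 3.27 FPKM with K7M2-EV and 0.0514 to 0.309 FPKM with PBS. These 4 were called higher, S100a9 was not called, Ly6g was at 0 in every K7M2-EV library and Mpo was at most 0.0281 FPKM there. Camp was tested only because its K7M2-EV libraries reached 1 FPKM, which favoured a rise. Summed mesenchymal markers were 215, 580 and 209 FPKM in K7M2-EV replicates 1 to 3 and 126, 298 and 138 FPKM in PBS replicates 1 to 3, with replicate 2 highest in both groups. The sums overlapped between the groups, and Col1a1 held the largest part of each. Of these 12 markers, 7 reached 1 FPKM in 3 libraries. Without a block limma called only Runx2 of them, as lower with K7M2-EV (log2 fold change -0.54, limma adjusted p = 0.00488). Runx2 was tested only because its PBS libraries reached 1 FPKM, which favoured a fall. With the replicate number added as a block, Col1a1, Col1a2, Col3a1 and Sparc were called higher and Runx2 stayed lower. Dendritic cell, lymphocyte and mast cell markers each summed to less than 1 FPKM in every library. Erythroid and platelet markers summed to 124 to 151 FPKM with K7M2-EV and 30.5 to 36.3 FPKM with PBS, and of the 4 listed Pf4 alone reached 1 FPKM in 3 libraries. The part of other cells in the results was not tested, and in bulk RNA a change in the number of cells that express a gene cannot be told apart from a change in RNA per cell.

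Of the 10 genes, 7 rose with K7M2-EV (Nlrp3, Mefv, Casp1, Casp4, Gsdmd, Mlkl and Casp8), Ripk1 fell, and Pycard and Ripk3 did not pass the test. A gene was called when limma's adjusted p (Benjamini-Hochberg over the 13009 genes that reached 1 FPKM in 3 or more libraries) was under 0.05. By the same rule 18.4% of all genes tested were higher with K7M2-EV, 35.6% were lower, and 54.0% were called in either direction. Changes are given as log2 fold changes of FPKM + 1, which understate the change of low genes, and their median was 0.45 over the 10 genes and -0.12 over all genes tested. Scaling by the median of ratios shifted the median of all genes up by 0.11 and made the higher and lower shares of all genes 26.5% and 26.0%. Quantile normalization made them 24.1% and 25.2%. Under either scaling the same 7 genes were called higher and none of the 10 was called lower. In 8 of the 10 genes K7M2-EV and PBS libraries did not overlap, as was the case for 63.8% of all genes tested. When the replicate number was added as a block, which called 19.2% of all genes higher and 36.8% lower, Ripk3 was called lower too.

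**Figure D1:**
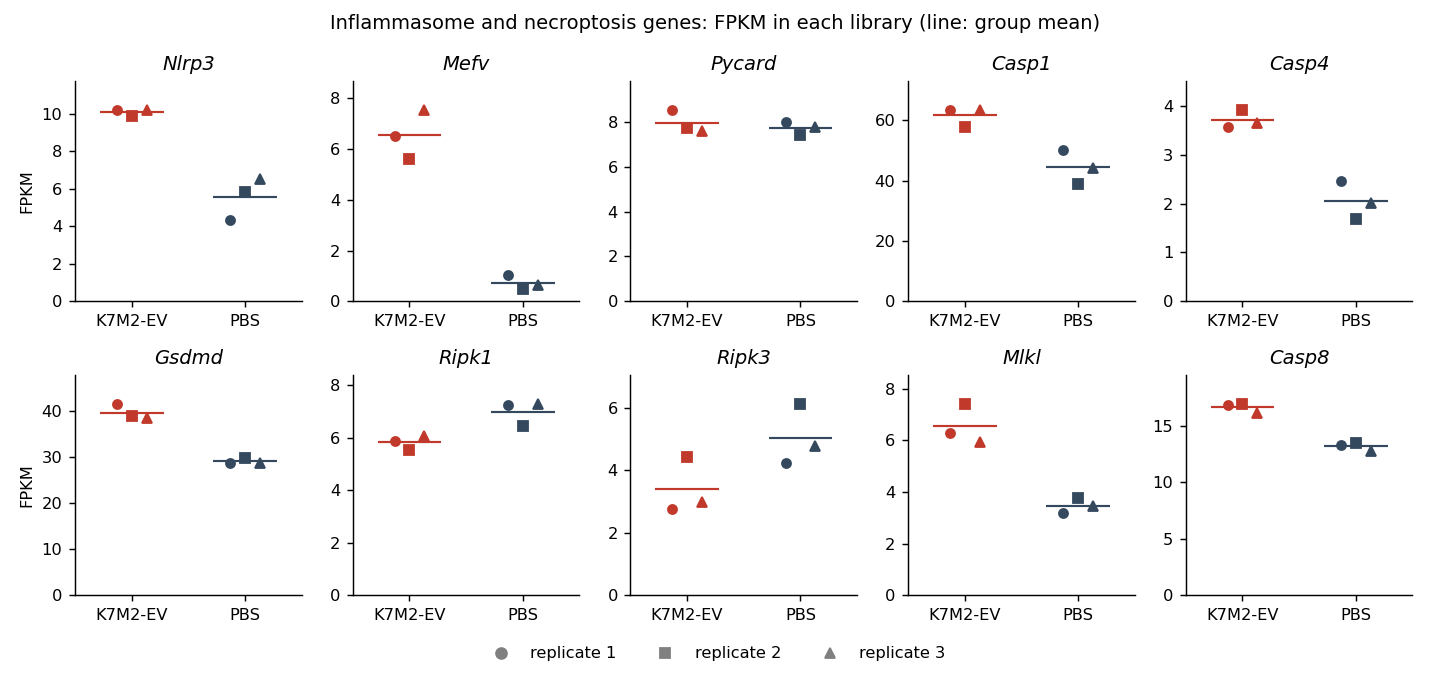
FPKM of each of the 10 genes (vertical axes, each from 0) in every library, K7M2-EV left of PBS; point shapes mark the replicate number and lines the group means. The groups overlap in Pycard and Ripk3, and Mefv is near 0 with PBS (0.726 ± 0.267 FPKM, SD, n = 3).

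Among the sensors, Mefv had the largest change of the 10 genes. It lies on chromosome 16 (chr16:3707218-3718097, minus strand, GRCm38). Mefv was at 6.49, 5.62 and 7.54 FPKM in K7M2-EV replicates 1 to 3 and at 1.02, 0.502 and 0.653 FPKM in PBS replicates 1 to 3. Every K7M2-EV library was above every PBS library. The means of 6.55 ± 0.957 FPKM with K7M2-EV and 0.726 ± 0.267 FPKM with PBS (SD, n = 3 each) differed 9.03-fold, with a log2 fold change of 2.13 (SE 0.14, limma adjusted p = 5.15e-05). Only 1.33% of genes tested had a larger log2 fold change. Mefv would not have passed the filter on low values without the K7M2-EV libraries, so the filter itself favoured a rise, and with a pseudocount of 0.1 in place of 1 its log2 fold change was 3.05.

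Nlrp3, the sensor whose priming is best known, lies on chromosome 11 (chr11:59541568-59566956, plus strand). Its level was 10.2, 9.89 and 10.2 FPKM in K7M2-EV replicates 1 to 3 and 4.34, 5.82 and 6.52 FPKM in PBS replicates 1 to 3. The groups did not overlap, and the K7M2-EV libraries were closer together (10.1 ± 0.161 FPKM) than the PBS libraries (5.56 ± 1.12 FPKM, SD, n = 3 each). The means differed 1.81-fold, a log2 fold change of 0.77 (SE 0.12, 95% interval 0.47 to 1.07, limma adjusted p = 0.00239). A larger log2 fold change was found in 6.31% of genes tested.

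Pycard (chr7:127989708-127993867, minus strand), the adaptor that both sensors need, was at 8.54, 7.74 and 7.59 FPKM in K7M2-EV replicates 1 to 3 and at 8.00, 7.42 and 7.78 FPKM in PBS replicates 1 to 3. The groups overlapped. Its log2 fold change was 0.03 with a 95% interval of -0.11 to 0.18 (limma adjusted p = 0.65). Exons of the uncharacterized Gm45205 cover 12.8% of the Pycard exons on the opposite strand. Whether reads were counted by strand is not stated, but Gm45205 was listed at no more than 0.366 FPKM with K7M2-EV and 0.45 FPKM with PBS.

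The ratio of Nlrp3 to Pycard within a library does not depend on scaling between libraries. It was 1.19, 1.28 and 1.34 in K7M2-EV replicates 1 to 3 and 0.542, 0.783 and 0.838 in PBS replicates 1 to 3. The FPKM of Nlrp3 thus exceeded that of Pycard in each K7M2-EV library and was below it in each PBS library. The mean difference was 0.84 on the log2 scale of the ratio. Which side of 1 a ratio lies on depends on the gene lengths behind FPKM, and the difference between groups does not.

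Casp1, Casp4 and Gsdmd, which carry out inflammasome signalling, all rose. Casp1 (chr9:5298517-5307265) and Casp4 (chr9:5308828-5336783) are neighbours on the plus strand of chromosome 9 with 1562 bases between them. Casp1 was at 63.4, 57.9 and 63.5 FPKM in K7M2-EV replicates 1 to 3 and at 50.2, 39.0 and 44.1 FPKM in PBS replicates 1 to 3. All K7M2-EV libraries were above all PBS libraries, of which replicate 1 was the highest. The means were 61.6 ± 3.23 FPKM with K7M2-EV and 44.4 ± 5.6 FPKM with PBS (SD, n = 3 each), 1.39-fold apart, with a log2 fold change of 0.47 (SE 0.10, limma adjusted p = 0.00753).

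In FPKM, Casp4 stood at a far lower level than its neighbour. It was at 3.56, 3.92 and 3.64 FPKM in K7M2-EV replicates 1 to 3 and at 2.47, 1.69 and 2.01 FPKM in PBS replicates 1 to 3, without overlap. Its log2 fold change was 0.63 (SE 0.10, limma adjusted p = 0.00238), with means of 3.71 ± 0.188 FPKM with K7M2-EV and 2.06 ± 0.39 FPKM with PBS (SD, n = 3 each), a 1.8-fold difference. The ratio of Casp4 to Casp1 was 0.0561 to 0.0677 with K7M2-EV and 0.0434 to 0.0492 with PBS, 0.39 higher with K7M2-EV on the log2 scale of the ratio and 0.16 higher when 1 FPKM was added to both levels.

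Gsdmd, the substrate of both caspases, lies at chr15:75862327-75867408 on the plus strand. It was at 41.6, 38.8 and 38.5 FPKM in K7M2-EV replicates 1 to 3 and at 28.8, 29.7 and 28.8 FPKM in PBS replicates 1 to 3. Each group was tight and the groups did not overlap. The means of 39.6 ± 1.70 FPKM with K7M2-EV and 29.1 ± 0.483 FPKM with PBS (SD, n = 3 each) differed 1.36-fold, a log2 fold change of 0.43 (SE 0.05, limma adjusted p = 0.000699). Its ratio to Casp1 was 0.606 to 0.670 with K7M2-EV and 0.575 to 0.760 with PBS, so the ratios overlapped.

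In the necroptosis arm, Mlkl and Casp8 were higher with K7M2-EV while the levels of both kinase genes were lower on average. Mlkl encodes the executioner and lies at chr8:111311797-111338177 on the minus strand. It was at 6.30, 7.43 and 5.92 FPKM in K7M2-EV replicates 1 to 3 and at 3.20, 3.76 and 3.44 FPKM in PBS replicates 1 to 3. Its groups did not overlap, with means of 6.55 ± 0.783 FPKM with K7M2-EV and 3.47 ± 0.282 FPKM with PBS (SD, n = 3 each). The difference was 1.89-fold, a log2 fold change of 0.75 (SE 0.09, limma adjusted p = 0.000682).

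Casp8, which encodes the protease that restrains necroptosis, lies at chr1:58795374-58847503 on the plus strand. Its level was 16.9, 17.0 and 16.2 FPKM in K7M2-EV replicates 1 to 3 and 13.3, 13.5 and 12.8 FPKM in PBS replicates 1 to 3. The groups did not overlap and the spread within each was small. The means of 16.7 ± 0.433 FPKM with K7M2-EV and 13.2 ± 0.338 FPKM with PBS (SD, n = 3 each) differed 1.27-fold, a log2 fold change of 0.32 (SE 0.05, limma adjusted p = 0.00159).

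Ripk1 (chr13:34002363-34037147, plus strand), the kinase below the tumour necrosis factor receptor, was the only one of the 10 genes called lower. It was at 5.90, 5.55 and 6.07 FPKM in K7M2-EV replicates 1 to 3 and at 7.25, 6.46 and 7.31 FPKM in PBS replicates 1 to 3. The groups did not overlap, with means of 5.84 ± 0.267 FPKM with K7M2-EV and 7.0 ± 0.473 FPKM with PBS (SD, n = 3 each). The log2 fold change was -0.23 (SE 0.06, limma adjusted p = 0.024), and limma's adjusted p was 0.0173 with the replicate block. The call was lost after scaling by the median of ratios (log2 fold change -0.10, limma adjusted p = 0.301) and after quantile normalization (-0.15, 0.15). It was also lost without K7M2-EV replicate 1 (limma adjusted p = 0.0606) or 2 (0.07), and without PBS replicate 1 (0.0671) or 3 (0.08). Exons of Serpinb6a on the opposite strand cover 2.89% of the Ripk1 exons, and Serpinb6a was itself at 8.0 to 10.8 FPKM with K7M2-EV and 19.3 to 20.3 FPKM with PBS. Without a stated strand setting, reads in that stretch cannot be told apart. Exons of Gm17084 cover 6.12% of the Ripk1 exons on the same strand, where a strand setting would not separate the reads. Gm17084 was listed at no more than 0.176 FPKM with K7M2-EV and 0.183 FPKM with PBS.

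Ripk3 (chr14:55784995-55788865, minus strand), the kinase that phosphorylates MLKL, varied with the replicate number. It was at 2.76, 4.42 and 2.97 FPKM in K7M2-EV replicates 1 to 3 and at 4.22, 6.13 and 4.77 FPKM in PBS replicates 1 to 3. Replicate 2 was highest in both groups, and K7M2-EV replicate 2 lay above PBS replicate 1, so the groups overlapped. Within each replicate number the K7M2-EV library was the lower one, at 0.623 to 0.721 of its PBS partner. The means of 3.38 ± 0.904 FPKM with K7M2-EV and 5.04 ± 0.983 FPKM with PBS (SD, n = 3 each) gave a log2 fold change of -0.47 (95% interval -0.89 to -0.05), which was not called (limma adjusted p = 0.0595). Under the replicate block, limma's adjusted p was 0.003 and the call was made. Without K7M2-EV replicate 2 the log2 fold change was -0.63 (limma adjusted p = 0.0141), and with replicate 2 left out of both groups it was -0.51 (limma adjusted p = 0.00822). The other 10 of 13 alternatives did not call Ripk3. Among them were scaling by the median of ratios (log2 fold change -0.35, limma adjusted p = 0.12) and quantile normalization (-0.34, 0.127). Others were the fits without K7M2-EV replicate 1 (-0.37, limma adjusted p = 0.167) or 3 (-0.41, 0.161), or without PBS replicate 2 (-0.34, 0.151). Summed mesenchymal markers were also highest in replicate 2 of both groups (580 FPKM with K7M2-EV and 298 FPKM with PBS), and their part in the Ripk3 levels was not tested.

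**Figure D2:**
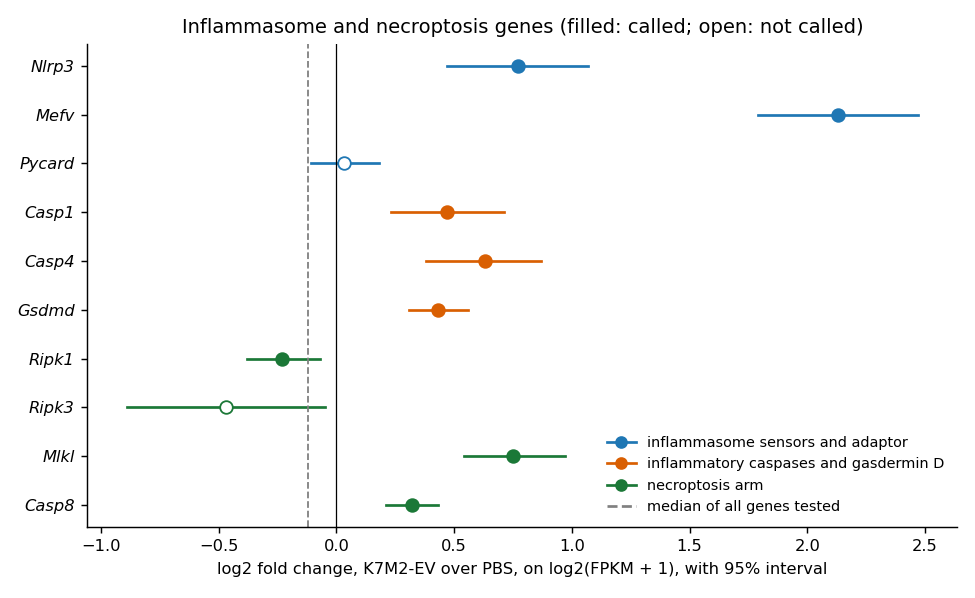
Log2 fold change of FPKM + 1 (horizontal axis, K7M2-EV over PBS) of each gene with its 95% interval from limma, coloured by role and filled where called; the dashed line is the median of all genes tested (-0.12). Mefv lies furthest right at 2.13, the interval of Pycard spans 0, and Ripk3 is open because its adjusted p was 0.0595 although its unadjusted interval lies below 0.

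Relative to its kinase, the executioner transcript was higher with K7M2-EV. The ratio of Mlkl to Ripk3 was 2.28, 1.68 and 1.99 in K7M2-EV replicates 1 to 3 and 0.757, 0.613 and 0.721 in PBS replicates 1 to 3. In FPKM, Mlkl thus exceeded Ripk3 in each K7M2-EV library and was below it in each PBS library, an order that depends on the gene lengths used. The mean difference was 1.5 on the log2 scale of the ratio (1.22 when 1 FPKM was added to both levels). The ratio of Casp8 to Ripk3 was 3.84 to 6.12 with K7M2-EV and 2.20 to 3.14 with PBS, without overlap. The ratio of Ripk3 to Ripk1 was 0.468 to 0.796 with K7M2-EV and 0.583 to 0.949 with PBS and overlapped.

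**Figure D3:**
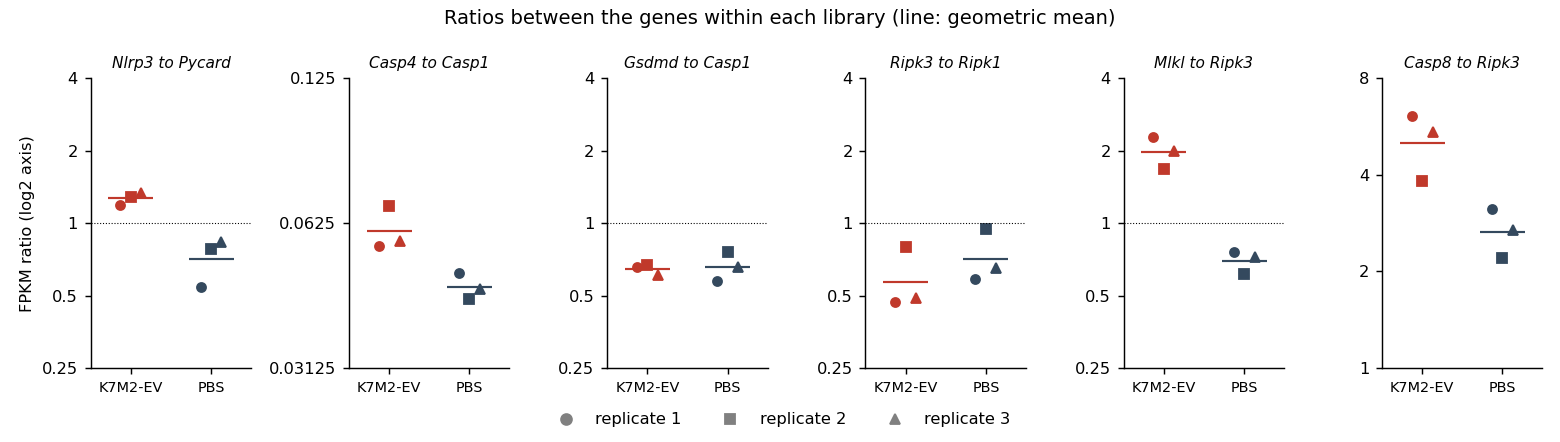
Ratio of the FPKM of 2 genes within each library (vertical log2 axes, which differ between panels), K7M2-EV left of PBS, with point shapes for the replicate number and lines for geometric means. Nlrp3 to Pycard and Mlkl to Ripk3 lie above the dotted line at 1 in all K7M2-EV libraries and below it in all PBS libraries, while Gsdmd to Casp1 and Ripk3 to Ripk1 overlap.

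The order of levels, in FPKM, was partly shared by the groups. It depends on the gene lengths used, so it need not be the order of transcript numbers. With K7M2-EV, Casp1 was highest (61.6 FPKM), followed by Gsdmd (39.6), Casp8 (16.7), Nlrp3 (10.1) and Pycard (7.96), each above the next in all 3 libraries. Mefv, Mlkl and Ripk1 followed at 5.84 to 6.55 FPKM and were not ordered alike in all 3 libraries. Casp4 and Ripk3 were lowest, and Casp4 was the higher of that pair in 2 of 3 libraries. With PBS, Casp1, Gsdmd and Casp8 were again the first, then came Pycard, Ripk1, Nlrp3 and Ripk3 at 5.04 to 7.74 FPKM, of which only Nlrp3 and Ripk3 were not ordered alike in all 3 libraries. Mlkl, Casp4 and Mefv were lowest with PBS. In FPKM, Mefv was therefore the lowest of the 10 genes in PBS cells and close to Mlkl and Ripk1 in K7M2-EV cells.

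Around these genes, 61 further genes of the same pathways were listed, of which 59 had values and 54 passed the filter. With K7M2-EV 18 of the 54 rose, 11 fell and 25 were not called, against 18.4% higher and 35.6% lower over all genes tested, and the share called in either direction was near the 54.0% of all genes. The median log2 fold change was -0.01, against -0.12 over all genes.

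**Figure D4:**
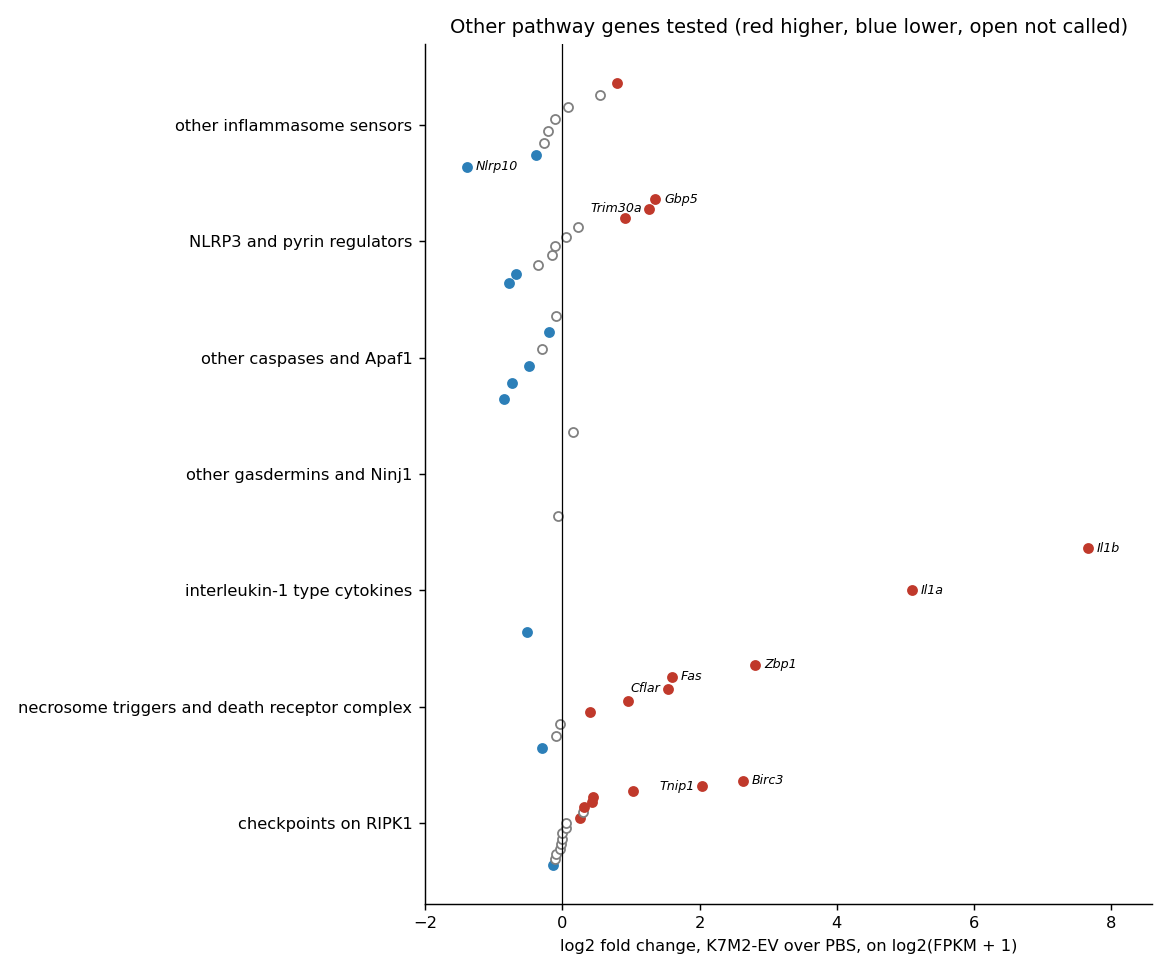
Log2 fold change of FPKM + 1 (horizontal axis, K7M2-EV over PBS) of the 54 tested genes of 7 further lists, 1 point a gene, red where called higher, blue where called lower and open where not called. Il1b (7.66) and Il1a (5.09) lie furthest right, and no red point stands among the other caspases and Apaf1.

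Il1b and Il1a had the largest log2 fold changes of the further lists. Il1b, the interleukin-1β gene whose product caspase-1 matures, was at 331 ± 11.7 FPKM with K7M2-EV and 0.655 ± 0.307 FPKM with PBS (SD, n = 3 each), a log2 fold change of 7.66 (limma adjusted p = 6.9e-07). Il1a, whose product does not depend on caspase-1 for maturation, was at 44.7 ± 2.43 FPKM with K7M2-EV and 0.347 ± 0.194 FPKM with PBS, a log2 fold change of 5.09 (limma adjusted p = 1.27e-06). Both passed the filter only through the K7M2-EV libraries. Il18, the other caspase-1 substrate, went the other way at 1.08 ± 0.283 FPKM with K7M2-EV and 1.97 ± 0.237 FPKM with PBS, a log2 fold change of -0.52 (limma adjusted p = 0.00945), and it would not have passed the filter without the PBS libraries.

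Of 8 other inflammasome sensors tested, 1 rose, 2 fell and 5 were not called, which for both directions is below the shares of all genes (18.4% higher and 35.6% lower). Nlrc4, which with NAIP proteins detects bacterial flagellin and secretion systems, was at 8.41, 6.73 and 8.07 FPKM in K7M2-EV replicates 1 to 3 and at 4.95, 3.15 and 4.22 FPKM in PBS replicates 1 to 3. It rose without overlap by 0.79 on the log2 scale (limma adjusted p = 0.00434). Aim2, the sensor of cytosolic DNA, was at 3.49, 2.60 and 2.64 FPKM in K7M2-EV replicates 1 to 3 and at 4.13, 4.12 and 4.04 FPKM in PBS replicates 1 to 3. It fell, also without overlap, with a log2 fold change of -0.39 (limma adjusted p = 0.0135), a call that was lost after median-of-ratios scaling (0.0513) and quantile normalization (0.0743) and with replicate 2 left out of both groups (0.0735). Nlrp10, which encodes an NLR protein without leucine-rich repeats, fell to 0.308 ± 0.0641 FPKM with K7M2-EV, against 2.43 ± 0.264 FPKM with PBS (log2 fold change -1.39, limma adjusted p = 3.73e-05), and it passed the filter only through the PBS libraries. The counts in this list depended on pairing: with the replicate block 2 rose and 4 fell.

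Among 10 regulators of NLRP3 and pyrin, 3 rose and 2 fell, a share called that is near the 54.0% of all genes. Pstpip1, whose product binds pyrin, was at 22.2 ± 1.28 FPKM with K7M2-EV and 11.2 ± 0.13 FPKM with PBS (log2 fold change 0.92, limma adjusted p = 3.79e-05), a rise beside that of Mefv itself. Gbp5, a guanylate-binding protein gene linked to NLRP3 assembly, was at 1.8 ± 0.378 FPKM with K7M2-EV and 0.0898 ± 0.0218 FPKM with PBS (log2 fold change 1.35, limma adjusted p = 0.000103), and passed the filter only through the K7M2-EV libraries. Trim30a, reported as a negative regulator of NLRP3, was at 40.1 ± 1.99 FPKM with K7M2-EV and 16.0 ± 0.917 FPKM with PBS, a log2 fold change of 1.27 (limma adjusted p = 1.93e-05), although close paralogs can share its reads. The falls were those of Txnip, a thioredoxin-binding protein gene, at 39.6 ± 5.99 FPKM with K7M2-EV and 64.1 ± 8.12 FPKM with PBS (-0.68, limma adjusted p = 0.00607), and of Malt1, a paracaspase gene, at 8.08 ± 1.36 FPKM with K7M2-EV and 14.5 ± 1.85 FPKM with PBS (-0.77, limma adjusted p = 0.0031). Nek7, the kinase gene whose product NLRP3 needs for assembly, was at 2.80, 7.58 and 2.76 FPKM in K7M2-EV replicates 1 to 3 and at 3.69, 3.54 and 11 FPKM in PBS replicates 1 to 3. A single library stood high in each group and no change was called (log2 fold change -0.35, limma adjusted p = 0.565), and without PBS replicate 3 the log2 fold change was 0.11.

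Of 6 tested genes of other caspases and Apaf1, none was called higher by limma and 4 were called lower, where 18.4% of all genes were higher and 35.6% lower. The counts were 0 higher and 5 lower at an unadjusted p under 0.05. Casp2 was at 1.31 ± 0.326 FPKM with K7M2-EV and 3.14 ± 0.192 FPKM with PBS (SD, n = 3 each, log2 fold change -0.85, limma adjusted p = 0.000925), and Casp6 at 1.25 ± 0.27 FPKM with K7M2-EV and 2.13 ± 0.0883 FPKM with PBS (-0.48, limma adjusted p = 0.00632), where Casp6 would not have passed the filter without the PBS libraries. Of the gasdermins beyond Gsdmd and of Ninj1, which encodes the protein that ruptures the membrane after pore formation, limma called neither of the 2 tested in either direction, and none had an unadjusted p under 0.05. Ninj1 was at 27.6 ± 3.49 FPKM with K7M2-EV and 24.6 ± 2.89 FPKM with PBS, and Gsdme at 1.02 ± 0.0782 FPKM with K7M2-EV and 1.12 ± 0.0601 FPKM with PBS.

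Upstream of RIPK3, 5 of 8 genes of necrosome triggers and the death receptor complex rose and 1 fell, beside 18.4% higher and 35.6% lower over all genes. Zbp1, the nucleic acid sensor that engages RIPK3 without RIPK1, was at 15.0, 15.4 and 13.3 FPKM in K7M2-EV replicates 1 to 3 and at 1.39, 1.28 and 0.991 FPKM in PBS replicates 1 to 3. The groups lay far apart, with a log2 fold change of 2.81 (limma adjusted p = 4.5e-06). As 2 PBS libraries reached 1 FPKM, Zbp1 would not have passed the filter without the K7M2-EV libraries. Fas, a death receptor gene, was at 7.34 ± 0.553 FPKM with K7M2-EV and 1.74 ± 0.177 FPKM with PBS (log2 fold change 1.60, limma adjusted p = 1.6e-05). Cflar encodes cFLIP, the partner that limits caspase-8 to its restraining activity. It was at 30.6, 24.8 and 26.3 FPKM in K7M2-EV replicates 1 to 3 and at 8.65, 8.5 and 8.92 FPKM in PBS replicates 1 to 3, a log2 fold change of 1.54 (limma adjusted p = 2.43e-05). In FPKM, Cflar was above Casp8 in each K7M2-EV library and below it in each PBS library, an order that depends on the gene lengths used. Fadd, the adaptor between death receptors and caspase-8, was at 3.50, 3.43 and 2.74 FPKM in K7M2-EV replicates 1 to 3 and at 4.27, 4.25 and 3.90 FPKM in PBS replicates 1 to 3. It fell by 0.29 on the log2 scale (limma adjusted p = 0.031). That call was lost after median-of-ratios scaling (0.137) and quantile normalization (0.186), with no filter (0.0564), with replicate 2 left out of both groups (0.0811), and without K7M2-EV replicate 3 (limma adjusted p = 0.0606) or PBS replicate 1 (0.0819), 2 (0.0781) or 3 (0.051).

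Of 17 genes whose products control RIPK1 through ubiquitin chains or phosphorylation, 7 rose and 1 fell, beside 18.4% higher and 35.6% lower over all genes, and the share called in either direction was below the 54.0% of all genes. Birc3, which encodes the ubiquitin ligase cIAP2, was at 29.2 ± 2.17 FPKM with K7M2-EV and 3.88 ± 0.386 FPKM with PBS (log2 fold change 2.63, limma adjusted p = 4.12e-06). Tnip1, which encodes the ubiquitin-binding protein ABIN1, was at 29.7 ± 3.61 FPKM with K7M2-EV and 6.45 ± 0.689 FPKM with PBS (2.04, limma adjusted p = 2.4e-05). Mapkapk2, the gene of a kinase that phosphorylates RIPK1, was at 111 ± 12 FPKM with K7M2-EV and 53.9 ± 1.75 FPKM with PBS (1.03, limma adjusted p = 0.000161). Rbck1, a subunit gene of the linear ubiquitin ligase, was called lower at 9.11 ± 0.208 FPKM with K7M2-EV and 10.2 ± 0.222 FPKM with PBS (-0.14, limma adjusted p = 0.036), and the call was lost without any 1 of the 6 libraries (limma adjusted p of 0.0586 to 0.118).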

How the data were processed

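RNA from 3 K7M2-EV and 3 PBS libraries was measured. The authors deposited 1 table of FPKM values per library, each with 26883 rows of gene symbols. Per the labels' protocols, total RNA went into a NEB Ultra RNA library kit. The submitters' processing notes list, with no roles, the build GRCm38 and the tools HISAT2 2.1.0, edgeR, StringTie 1.3.4b and CASAVA 1.8. Whether reads were counted by strand is not stated. The name FPKM fits the values, whose spacing gave whole fragments within 0.1 for 72.5% to 73.3% of values worth at most 20 fragments (20% by chance), with gene lengths from GENCODE M21. That share was too low to run a count test, so the implied depth is approximate. FPKM puts every library on its own total, so a change in a few abundant genes can shift all others, and 2 other scalings were tried for this.

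One row without a value was dropped, and 47 rows that repeated a symbol at a lower mean were dropped, which left 26835 genes. The 13009 genes that reached 1 FPKM in 3 or more libraries entered a limma fit of log2(FPKM + 1) without a block (R 4.3.3, limma 3.58.1, statmod 1.5.0, trended and robust eBayes), and p-values were adjusted over all of them (Benjamini-Hochberg, called under 0.05). Intervals and SEs are those of limma. Python 3.11.15 with pandas 2.3.3, numpy 2.4.6 and matplotlib 3.10.9 did the rest. The fit was also run on simulated data. These had no replicate effect and far fewer changed genes, so that run does not show how the fit performs on data like these. Ratios, levels and promoter matches carry no test.

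The 10 genes and the further lists were chosen with earlier results of these data known. All 10 are named. Of each further list the rule named the called genes with the 3 largest rises and falls, and Il1b, Il1a, Il18, Aim2, Nlrc4, Nek7, Zbp1, Fadd and Cflar whatever their result. Some genes that the rule covers are counted but not reported here. Ninj1 and Gsdme, and the genes of the closing section, were picked with their values in view.

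Libraries with the same number had correlated deviations from their group means across genes, at 0.317, 0.294 and 0.209, against -0.307 to 0.023 for other pairs. Deviations from a group mean cancel out within the group. Positive values for equal numbers thus force lower values for other pairs, which are no separate evidence. The numbers may therefore pair the samples, which rests on the data and not on a label. The main fit did not use this pairing, and calls given without mention of the block are unpaired. The block was run as an alternative. Alternatives were another pseudocount, 2 other filters, 2 scalings, the replicate block, limma without trend and robust settings, and left-out libraries. Where nothing says that replicates share no mice or vesicle preparation, p-values measure only the spread between these samples.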

Additional observations from a re-analysis of the deposited data

How the results depend on the processing

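The 7 genes that rose stayed called under every alternative that tested them, but a filter on a mean of at least 5 FPKM left out Mefv, Casp4 and Ripk3. Of the 10 genes, the number called lower was 0 after quantile normalization or scaling by the median of ratios, 2 with the replicate block or with replicate 2 left out of both groups, and 0 to 1 without single libraries. The replicate block changed no call among the 10 genes except that of Ripk3. In the further lists the block also called Naip2, Card9 (limma adjusted p = 0.0147) and Tab2 (0.00497) higher and Naip5 and Naip6 lower, no longer called Rbck1 (0.0527), and changed no other call. Without single libraries Pycard, not called, had log2 fold changes of -0.01 (without K7M2-EV replicate 1) to 0.06, and Nek7, not called, of -0.75 to 0.11 (without PBS replicate 3). Over all genes the number lower was 1950 with the filter on a mean of 5 FPKM, where 6111 genes were tested. Over all further lists it was 5 with that filter and 7 when scaled by the median of ratios or with replicate 2 left out. Of the other sensors, 2 were higher after either scaling, with the block or without replicate 2, while the number lower was 0 with the filter at 5 FPKM, 1 after either scaling or without replicate 2, and 4 with the block. That filter left 2 of the other caspases lower and 0 of the cytokine genes lower. The fall in the death receptor list was 0 to 1 genes without single libraries and 0 with no filter, with the filter at 5 FPKM, after median-of-ratios scaling and without replicate 2. The fall among the checkpoints on RIPK1 was 0 genes with no filter, after either scaling, with the block, without trend and robust settings, and without any single library or replicate 2. The log2 differences of the Casp4 to Casp1 and Mlkl to Ripk3 ratios were 0.16 and 1.22 with 1 FPKM added. The cause of these shifts was not tested, and some of the alternatives also held fewer genes or libraries. At this depth Mefv with PBS had the fewest fragments.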

Other observations

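The NAIP genes, which encode the receptors that pair with NLRC4, followed the replicate number as Ripk3 did. Naip2 was at 8.87, 16.7 and 10.9 FPKM in K7M2-EV replicates 1 to 3 and at 6.21, 10.6 and 7.0 FPKM in PBS replicates 1 to 3. Naip5 was at 3.17, 5.45 and 3.67 FPKM in K7M2-EV replicates 1 to 3 and at 3.95, 6.13 and 4.45 FPKM in PBS replicates 1 to 3. Naip6 was at 1.91, 3.51 and 2.53 FPKM in K7M2-EV replicates 1 to 3 and at 2.84, 4.12 and 3.10 FPKM in PBS replicates 1 to 3. Replicate 2 was highest in both groups for each of these 3 genes, as it was for the summed mesenchymal markers. None of the 3 was called without pairing (limma adjusted p = 0.121 for Naip2, 0.42 for Naip5 and 0.261 for Naip6). With the replicate block Naip2 was called higher (limma adjusted p = 0.00152), and Naip5 (0.0313) and Naip6 (0.0308) were called lower. These genes are near-identical neighbours whose reads can be assigned to one another, so their opposite directions are uncertain.

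Map3k7, the gene of the kinase TAK1 that restrains RIPK1, was at 5.43, 6.29 and 5.72 FPKM in K7M2-EV replicates 1 to 3 and at 8.77, 3.66 and 6.09 FPKM in PBS replicates 1 to 3. The PBS libraries were spread over a wider range than the K7M2-EV libraries and enclosed them.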
